A study of Mus musculus with 9 samples.

Results

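The MHC class I presentation genes and the immunoproteasome subunits were followed through 3 subpopulations of activated hepatic stellate cells (aHSCs), the scar-forming cells of the injured liver. The members are 10 genes: the heavy chains H2-K1, H2-D1 and H2-T23, the light chain B2m, the peptide transporter and loading genes Tap1, Tap2 and Tapbp, and the immunoproteasome subunits Psmb8, Psmb9 and Psmb10. Every probe of the bead array annotated to a member by its symbol was taken, which gave 20 probes for the 10 genes among 45281 probes and 30869 gene symbols in all. The cells carried the WT1GFP/+ genotype on a C57/Bl6 background, in which GFP replaces an allele of the Wilms tumour gene, so every group, controls included, was heterozygous for Wt1. WT1-high (GFP high) and WT1-intermediate (GFP low) aHSCs were sorted straight from livers chronically injured with carbon tetrachloride. WT1-negative (GFP negative) aHSCs came from quiescent cells of uninjured WT1GFP/+ animals that activated during 7 days on plastic and were then sorted. Each group held 3 arrays, and the labels give all animals as male. The labels do not give the animals' age. The study's methods describe adult mice, males for work in vivo and both sexes for work in vitro.

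MHC class I molecules carry peptides of intracellular proteins to the cell surface, where CD8 T cells inspect them. The proteasome cuts the proteins, the TAP transporter (Tap1 and Tap2) moves the peptides into the endoplasmic reticulum, and tapasin (Tapbp) helps to load them onto a heavy chain paired with B2m. Under interferon, cells replace the constitutive catalytic subunits of the proteasome (Psmb5, Psmb6 and Psmb7) with the immunoproteasome subunits Psmb8, Psmb9 and Psmb10. Interferons and NF-kappaB raise transcription of much of this pathway. Hepatic stellate cells are reported to present antigen, and in bulk RNA a gene can also come from other cells in the sort.

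All 9 arrays detected a similar number of probes, from 17253 to 19774 at a detection p-value under 0.05. Mean signals before normalization were lowest on the WT1-intermediate arrays, at 147.5 to 220.5 units against 231.4 to 288.9 on the others. The number of arrays limits the precision. The labels do not tie arrays to animals, and the study's methods describe replicates as separate animals for work in vivo and separate isolations for work in vitro. The paper sorted WT1-high and WT1-intermediate cells from the same cohort of injured animals. An array of each group may therefore come from the same animal, which the main test did not take into account. WT1-negative cells differed from the others in their WT1 status, in liver injury, in culture, and in the table that holds them, and these cannot be told apart. Bulk arrays also cannot tell fewer cells of a type from less RNA per cell. The labelled cell type was only partly visible in its markers: Pdgfrb and Des were detected on every array, Rgs5 on none and Lrat on 1 WT1-high array. Mesothelial markers were far higher in the cells from injured liver than in WT1-negative cells, with summed normalized levels of 16080 to 32870 against 162.9 to 206.5.

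Class I heavy chains are near copies of each other, so the probe sequences decide what each level can mean. The probes below are shown because the chains' results depend on which gene a probe can read and because the Psmb8 probe came nearest to a call between the cells from injured liver. Capitals mark the longest run of at least 20 bases shared with a probe that the array assigns to another gene, and a probe in lower case throughout shares no such run.
H2-K1 ILMN_2795520: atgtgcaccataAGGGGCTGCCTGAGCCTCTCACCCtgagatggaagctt
H2-D1 ILMN_2462745: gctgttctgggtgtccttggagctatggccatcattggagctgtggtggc
H2-D1 ILMN_2608090: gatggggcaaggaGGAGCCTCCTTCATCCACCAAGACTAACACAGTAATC
H2-T23 ILMN_2777474: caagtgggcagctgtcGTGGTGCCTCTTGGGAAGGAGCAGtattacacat
H2-T23 ILMN_2777471: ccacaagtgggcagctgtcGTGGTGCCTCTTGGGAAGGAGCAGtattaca
B2m ILMN_1216746: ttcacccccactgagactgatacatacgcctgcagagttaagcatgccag
Psmb8 ILMN_2693940: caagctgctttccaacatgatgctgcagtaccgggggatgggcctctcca

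The H2-K1 probe ILMN_2795520 shares 24 bases with a probe of H2-Q6, a non-classical class I gene. The H2-D1 probe ILMN_2608090 shares 37 bases with a probe of H2-Q5. Another H2-D1 probe, ILMN_2476267, shares 34 bases with a probe of the predicted gene LOC547343. Both H2-T23 probes above overlap each other by 47 bases and share 24 bases with a probe of the predicted gene EG630499. The B2m probes ILMN_1216746 and ILMN_2739999 overlap by 49 bases and are nearly the same measurement. H2-K1 ILMN_2588139, H2-D1 ILMN_2462745 and H2-T23 ILMN_1223179 share no such run with another gene's probe. The search compared probes with each other and not with transcripts, so it cannot show that any probe reads 1 gene alone. The H2-D1 probe ILMN_2608090 and the B2m probe ILMN_2670561 were detected on 0 of 9 arrays and were not tested. The other 18 probes were detected on all 9 arrays, and every member kept at least 1 of them.

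The upstream sequences of 4 chain genes are shown because H2-K1, H2-T23, H2-D1 and B2m encode heavy chains and the light chain they each pair with, and moved by unequal amounts. They are the 250 bases before the start site in RefSeq, build GRCm38.p6, read 5′ to 3′ on the gene's strand. In H2-K1 (chr17:34000348-34000597, minus strand) and H2-D1 (chr17:35262844-35263093, plus strand) capitals mark runs of at least 20 bases that both hold. In B2m (chr2:122147437-122147686, plus strand) and H2-T23 (chr17:36032702-36032951, minus strand) capitals mark the match to the interferon-stimulated response element, searched on both strands as a pair of GAAA repeats set apart by any 2 bases.
H2-K1: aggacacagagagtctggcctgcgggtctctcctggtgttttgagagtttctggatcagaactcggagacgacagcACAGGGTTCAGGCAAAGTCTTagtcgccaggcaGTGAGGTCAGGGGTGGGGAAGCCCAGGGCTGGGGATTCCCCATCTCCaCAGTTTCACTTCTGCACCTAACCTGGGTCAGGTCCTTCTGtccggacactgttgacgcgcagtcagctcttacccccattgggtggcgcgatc
H2-D1: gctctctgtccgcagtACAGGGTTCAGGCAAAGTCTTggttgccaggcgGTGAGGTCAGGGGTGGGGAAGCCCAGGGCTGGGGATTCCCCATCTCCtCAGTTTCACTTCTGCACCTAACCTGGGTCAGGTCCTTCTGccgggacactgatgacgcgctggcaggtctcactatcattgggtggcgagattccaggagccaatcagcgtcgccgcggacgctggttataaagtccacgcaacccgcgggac
B2m: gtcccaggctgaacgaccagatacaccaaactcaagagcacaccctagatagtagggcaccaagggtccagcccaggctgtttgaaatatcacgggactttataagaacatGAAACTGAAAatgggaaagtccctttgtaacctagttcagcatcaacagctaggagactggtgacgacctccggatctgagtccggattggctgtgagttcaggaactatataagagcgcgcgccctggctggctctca
H2-T23: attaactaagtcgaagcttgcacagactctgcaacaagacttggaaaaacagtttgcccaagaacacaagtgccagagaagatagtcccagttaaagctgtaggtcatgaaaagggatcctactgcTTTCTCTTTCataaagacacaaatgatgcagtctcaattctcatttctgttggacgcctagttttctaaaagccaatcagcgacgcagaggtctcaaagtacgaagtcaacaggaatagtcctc

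The H2-K1 and H2-D1 windows were 87.4% identical over 190 aligned bases, with a longest shared run of 47 bases. Both hold the kappaB element GGGATTCCC and the interferon regulatory factor element GAANNGAAA (minus strand) inside the capitals. The matches start 110 and 90 bases before the start of H2-K1, and 170 and 150 bases before that of H2-D1. Of 32851 promoter windows in the table, 0.353% held the kappaB letters, 7.52% the GAANNGAAA letters and 3.44% the interferon-stimulated response element, on either strand. That element lay 139 bases before the start of B2m and 124 before that of H2-T23. Its letters can overlap those of GAANNGAAA, and each motif was counted separately. The gamma-activated sequence TTCNNNGAA, held by 8.3% of windows, was found in Psmb8 alone among the 9 members with an entry, 97 bases before its start. Tap1, Tapbp, Psmb9 and Psmb10 held none of these 4 motifs in their windows. Psmb9, Tap1, Psmb8 and Tap2 follow each other on chromosome 17 with no other gene between them in the RefSeq table. The Tap1 and Psmb9 windows lie head to head and share 275 of their 300 bases. These matches describe letters and were not tested as sites.

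H2-K1, H2-T23, H2-D1 and B2m probes were higher in the cells from injured liver than in WT1-negative cells, by amounts that ran from 0.35 to 3.3 on the log2 scale among those called. Of the 9 heavy and light chain probes tested, 8 rose against WT1-negative cells in each of the other groups, beside 26.5% (WT1-high) and 24.4% (WT1-intermediate) of all probes called higher, and none fell. The 9 include the overlapping pairs of H2-T23 and B2m, so they are not 9 separate measurements. H2-K1, a classical heavy chain, rose most. Its probe ILMN_2588139 read 11.59, 11.7 and 11.71 (log2 normalized level) in WT1-high, 11.67, 11.47 and 11.52 in WT1-intermediate and 8.6, 7.96 and 8.53 in WT1-negative cells. The WT1-negative arrays lay far below all 6 others. Set against the WT1-negative arrays, the level was 9.87-fold higher in WT1-high and 9.1-fold higher in WT1-intermediate cells (limma, adjusted p by Benjamini-Hochberg 7e-08 and 1.2e-07).

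The second H2-K1 probe, ILMN_2795520, gave the same order with smaller differences. It read 7.79 to 8.1 in WT1-high, 7.51 to 8 in WT1-intermediate and 6.22 to 6.29 in WT1-negative cells. The log2 differences against WT1-negative were 1.71 (95% interval 1.35 to 2.06) and 1.47 (1.12 to 1.83), and the groups did not overlap. The H2-Q6 probe with which it shares bases differed by 2.32 and 2.21.

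**Figure D1:**
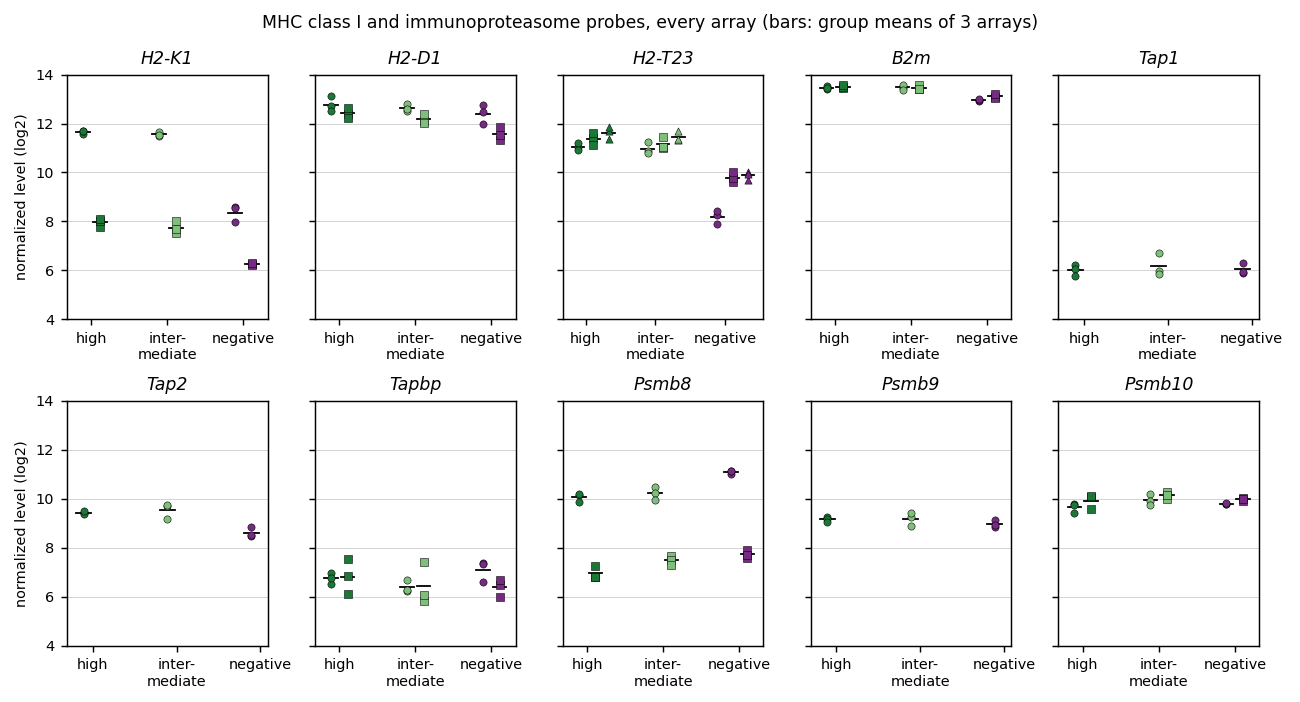
Normalized level (log2, vertical axis) of the 18 detected probes on every array, with a panel for each gene and the 3 groups along the horizontal axis. Points are arrays, shapes are probes of a gene in order of their number, and bars are means of 3 arrays. H2-K1 and H2-T23 were lowest on the 3 WT1-negative arrays, Psmb8 ILMN_1226683 was highest there, and WT1-high and WT1-intermediate arrays lay close together.

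H2-T23 encodes Qa-1, a non-classical heavy chain that NK cells read through their NKG2A receptor. Probe ILMN_1223179 read 11.02, 11.2 and 10.91 in WT1-high, 10.87, 11.23 and 10.78 in WT1-intermediate and 8.28, 7.91 and 8.41 in WT1-negative cells. It was 7.17-fold and 6.77-fold higher in the cells from injured liver (limma adjusted p 2.5e-07 and 4.1e-07). The overlapping probes ILMN_2777474 and ILMN_2777471 differed by 1.74 and 1.58 in WT1-high and by 1.57 and 1.36 in WT1-intermediate cells on the log2 scale. All 4 were called, but the last was lost with median scaling (0.71, adjusted p 0.062). The EG630499 probe that shares bases with them differed by 0.64 and 0.45 (adjusted p 0.015 and 0.068).

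H2-D1, the other classical heavy chain of this strain, was already bright in WT1-negative cells and its probes did not give the same call. Probe ILMN_2462745 read 12.7, 13.11 and 12.51 in WT1-high, 12.52, 12.78 and 12.59 in WT1-intermediate and 11.98, 12.74 and 12.49 in WT1-negative cells. These groups overlapped, and the log2 differences of 0.37 (95% interval -0.1 to 0.84) and 0.23 (-0.24 to 0.7) were not called. Probe ILMN_2476267 differed by 0.83 and 0.6 (limma adjusted p 0.002 and 0.014), with groups that did not overlap. The LOC547343 probe with which it shares bases differed by 2.65 and 2.56. The call of ILMN_2476267 in WT1-intermediate cells was lost without WT1-intermediate replicate 8 (adjusted p 0.058), without WT1-negative replicate 3 (0.065) and with median scaling (log2 difference 0.07, adjusted p 0.83).

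B2m, the light chain that every class I heavy chain needs at the surface, was among the brightest transcripts in all groups. Probe ILMN_1216746 read 13.41, 13.53 and 13.43 in WT1-high, 13.47, 13.58 and 13.38 in WT1-intermediate and 12.92, 12.98 and 13 in WT1-negative cells. All 6 arrays from injured liver lay above the WT1-negative arrays, near the array's highest level of 13.97. The rise was 1.41-fold and 1.43-fold (limma adjusted p 0.007 and 0.006), and it was lost with median scaling (adjusted p 0.075 and 0.17). The overlapping probe ILMN_2739999 differed by 0.4 and 0.35 (adjusted p 0.023 and 0.041). Its call in WT1-high cells was lost with cyclic loess (adjusted p 0.07), with median scaling (0.16) and without WT1-high replicate 29 (adjusted p 0.06), WT1-negative replicate 3 (0.065) or WT1-negative replicate 11 (0.069). Its call in WT1-intermediate cells was lost without any of 7 arrays, the exceptions being WT1-high replicates 8 and 29 (adjusted p 0.054 to 0.12 in those 7). It was also lost with median scaling (0.16, adjusted p 0.49), with array weights (0.057) and with only the groups compared (0.05).

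The transporter and loading genes did not move together. Tap2, a subunit of the transporter, rose, Tap1, its partner, gave no call, and the Tapbp probes disagreed. Tap2 probe ILMN_2686721 read 9.41, 9.38 and 9.5 in WT1-high, 9.19, 9.69 and 9.74 in WT1-intermediate and 8.83, 8.49 and 8.53 in WT1-negative cells, with no overlap. It was 1.76-fold and 1.9-fold higher (limma adjusted p 0.0021 and 0.00096), and the second difference shrank to 0.17 on the log2 scale with median scaling (adjusted p 0.59). Tap1 probe ILMN_1250409 was dim, at 5.79 to 6.24 in WT1-high, 5.85 to 6.72 in WT1-intermediate and 5.9 to 6.3 in WT1-negative cells. The Tap1 groups overlapped throughout, and the log2 differences were -0.03 (95% interval -0.54 to 0.48) and 0.13 (-0.38 to 0.64).

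Tapbp encodes tapasin, which bridges the transporter and the heavy chain. Probe ILMN_1226819 read 6.52, 6.96 and 6.76 in WT1-high, 6.23, 6.28 and 6.7 in WT1-intermediate and 6.62, 7.38 and 7.32 in WT1-negative cells. Against WT1-negative cells, the WT1-intermediate level differed by -0.7 on the log2 scale and was called lower (limma adjusted p 0.019), although the groups overlapped. That call was lost without WT1-intermediate replicate 1 (adjusted p 0.06), WT1-intermediate replicate 8 (0.057), WT1-negative replicate 11 or WT1-negative replicate 14 (0.076 each), and with no filter (0.056). In WT1-high cells the difference of -0.36 was not called (adjusted p 0.18), but it was -0.6 and called without WT1-negative replicate 3 (0.03). The other Tapbp probe, ILMN_3155492, spread from 5.82 to 7.54 over the arrays and differed by 0.43 and 0.04 with no call.

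The immunoproteasome subunits did not follow the chains. Psmb8 fell, and Psmb9 and Psmb10 gave no call. Psmb8 (LMP7) supplies the chymotrypsin-like activity. Its probe ILMN_1226683 read 10.16, 10.18 and 9.88 in WT1-high, 10.49, 10.24 and 9.94 in WT1-intermediate and 11, 11.13 and 11.14 in WT1-negative cells. All 6 arrays from injured liver lay below the WT1-negative arrays. It fell by 1.02 and 0.87 on the log2 scale (limma adjusted p 0.00036 and 0.0011), and both calls held in all 19 alternatives. The second probe, ILMN_2693940, read 7.27, 6.82 and 6.79 in WT1-high, 7.68, 7.49 and 7.31 in WT1-intermediate and 7.59, 7.9 and 7.72 in WT1-negative cells. It fell by 0.78 in WT1-high cells (adjusted p 0.0028), and its difference of -0.24 in WT1-intermediate cells was not called (adjusted p 0.26), except with median scaling (-0.92, adjusted p 0.023).

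Psmb9 (LMP2), encoded head to head with Tap1, read 9.06 to 9.25 in WT1-high, 8.89 to 9.42 in WT1-intermediate and 8.84 to 9.14 in WT1-negative cells. Its log2 differences were 0.19 (95% interval -0.18 to 0.56) and 0.21 (-0.15 to 0.58). Psmb10 (MECL-1) read 9.58 to 10.1 in WT1-high, 9.99 to 10.29 in WT1-intermediate and 9.89 to 10.02 in WT1-negative cells at its brighter probe. The Psmb10 differences lay between -0.15 and 0.17 over 2 probes, with intervals from -0.51 to 0.55. The intervals of Psmb9 and Psmb10 leave out a change of 1 on the log2 scale in either direction, which the H2-K1 and H2-T23 probes passed.

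**Figure D2:**
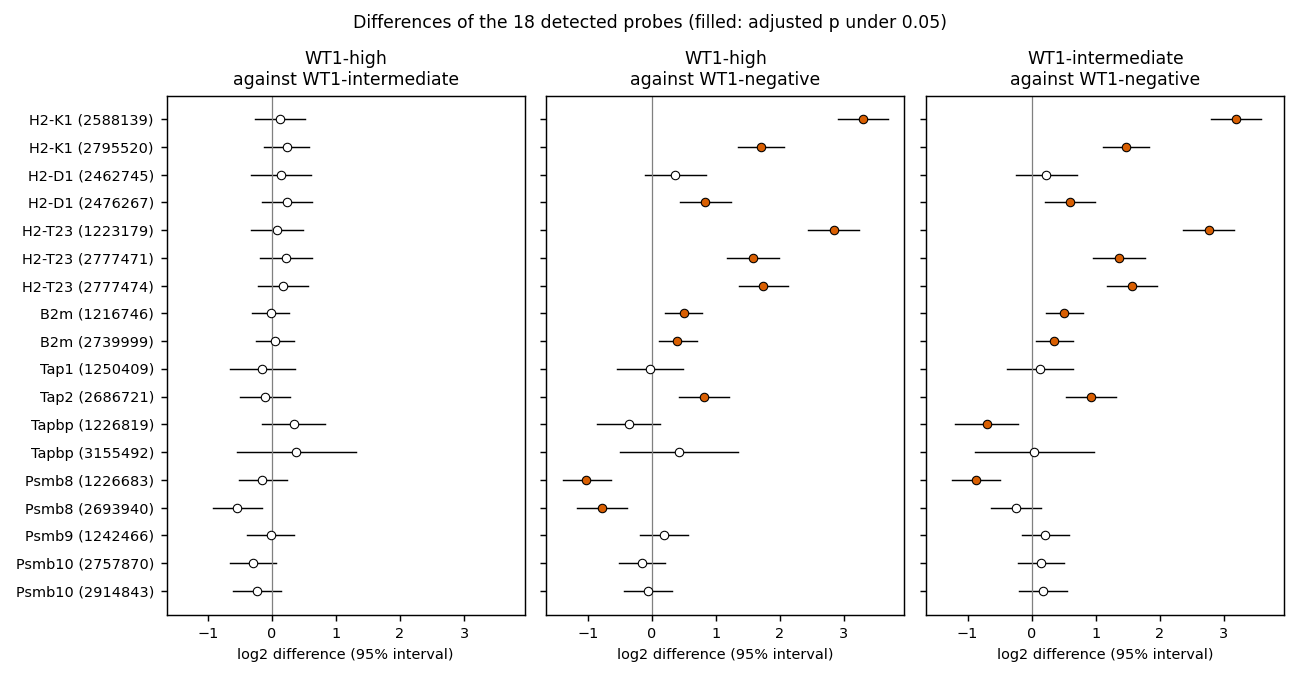
Log2 difference (horizontal axis) of each of the 18 detected probes in the 3 comparisons, with 95% intervals as lines and filled points for an adjusted p under 0.05. Probes are labelled by gene and probe number. Against WT1-negative cells the H2-K1 and H2-T23 points lay to the right and the Psmb8 points to the left of 0, and no point was filled between WT1-high and WT1-intermediate cells.

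Over the members as a whole, 11 of 18 probes were called when WT1-high arrays were set against WT1-negative arrays, of which 9 were higher and 2 lower. That is 61.1% of the member probes, beside 59.6% of all 20573 probes tested. By direction, 50% of the member probes were called higher and 11.1% lower, beside 26.5% and 33.1% of all probes. Between WT1-intermediate and WT1-negative cells, again 9 were called higher and 2 lower, beside a background of 58% called, 24.4% higher and 33.6% lower. The median log2 difference of the member probes was 0.41 for WT1-high cells and 0.29 for WT1-intermediate cells, where that of all probes was -0.1 and -0.13. The groups did not overlap at 12 and 10 of the 18 probes (66.7% and 55.6%), near the 68.4% and 65.5% of all probes. The 2 contrasts share the WT1-negative arrays.

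No member differed by the test between WT1-high and WT1-intermediate cells. None of the 18 member probes was called, beside 3.55% of all probes called, 0.904% higher and 2.64% lower (limma; 1 member probe had an unadjusted p under 0.05). The differences ran from -0.54 to 0.38 with a median of 0.07, and 8 of the 18 lay below 0. The 95% interval lay within 1 log2 unit of 0 for 17 of the 18 probes, the exception being the variable Tapbp probe ILMN_3155492. H2-K1 ILMN_2588139 differed by 0.12 (-0.27 to 0.51), H2-T23 ILMN_1223179 by 0.08 (-0.32 to 0.48), B2m ILMN_1216746 by -0.02 (-0.31 to 0.27) and Psmb9 by -0.02 (-0.39 to 0.34). Psmb8 ILMN_2693940 was the probe nearest to a call, with a difference of -0.54 (adjusted p 0.14), and the only member probe whose 2 groups did not overlap, beside 20.1% of all probes. With the replicate number as a random block it was called (adjusted p 0.043). The other Psmb8 probe differed by -0.15 (adjusted p 0.71). Median scaling moved the median difference of all probes from 0.05 to 0.45 and called 0 member probes, but its differences were larger. H2-K1 then differed by 0.74 and 0.91 (adjusted p 0.061 and 0.059), H2-T23 ILMN_2777471 by 0.84 (0.067) and Tapbp ILMN_1226819 by 0.89 (0.063). Psmb8 ILMN_2693940 changed sign there, to 0.12 (adjusted p 0.8).

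Macrophage markers, by contrast, differed widely between the same groups. Of 14 macrophage markers tested, 8 fell in WT1-high against WT1-intermediate cells and none rose, with a median log2 difference of -1.7. The share of all probes called lower was 2.64%. C1qa, a complement subunit made by macrophages, fell by 2.83, and Lyz1, a lysozyme, fell by 4.11. The summed level of the 14 markers was 3725 to 6677 in WT1-high, 12670 to 20470 in WT1-intermediate and 35450 to 39810 in WT1-negative cells, and Cd5l was detected on no array. Of 10 endothelial markers 4 fell, with summed levels of 584.1 to 757.6 against 1120 to 1133. No MHC class II, T and NK cell, B cell or hepatocyte marker was called between these groups (8, 7, 3 and 5 tested). Of 7 mesothelial markers only Dmkn rose (called at 1 of 3 probes), and of 5 myofibroblast markers only Acta2 (2 of 4 probes). The paper lists Acta2 as not differentially expressed between these groups. Of 6 stellate cell markers Des rose, and Pdgfrb and Hgf fell, Hgf being called at 1 of 2 probes. The part of these cells in the member levels was not tested.

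**Figure D3:**
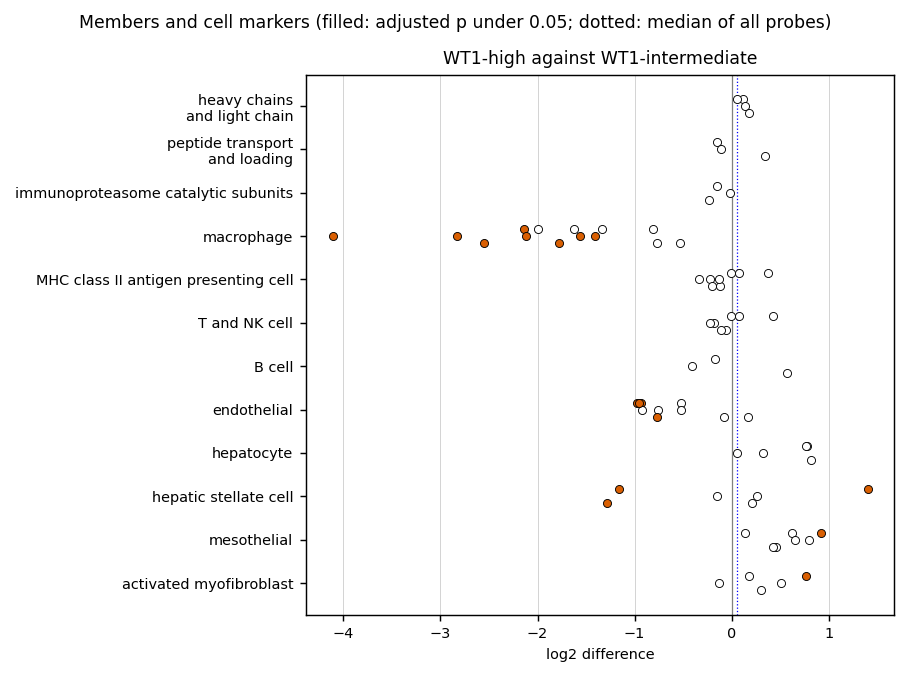
Log2 difference between WT1-high and WT1-intermediate cells (horizontal axis) for member genes and cell type markers, each at its brightest probe, filled for an adjusted p under 0.05, with the median of all probes dotted. The member points lay between -0.23 and 0.34, whereas macrophage markers reached -4.11.

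Other immune cell markers moved in the direction of the heavy chains between injured liver and culture. Of 8 markers of MHC class II antigen presenting cells, 5 rose in WT1-high cells, led by H2-Aa, which was detected on no WT1-negative array and was at least 87.1-fold higher. The summed level of these markers was 12200 to 15530 in WT1-high, 11020 to 17420 in WT1-intermediate and 948.8 to 1363 in WT1-negative cells, and Flt3 was detected nowhere. Of 7 T and NK cell markers 6 rose in WT1-high cells, and 5 rose in WT1-intermediate cells. The shares of all probes called higher in these contrasts were 26.5% and 24.4%. Cd3e, Cd3d and Nkg7 were detected on no WT1-negative array, and Cd8a, Cd4 and Ncr1 on no array. The T and NK sums were 620.4 to 958.4, 560.1 to 1039 and 154.7 to 166.3. B cell markers were dim, with sums of 104.3 to 134.8 in the cells from injured liver and 63.22 to 73.22 in WT1-negative cells, and Ms4a1 was not detected. Of 14 macrophage markers, 8 fell and 2 rose in WT1-high cells (median -1.45), whereas 4 fell and 5 rose in WT1-intermediate cells (median 0.15). Whether these cells carry part of the difference in H2-K1 or H2-T23 was not tested.

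Endothelial markers summed to 1477 to 2043 in WT1-negative cells, above both groups from injured liver. Hepatocyte markers summed to 5579 to 8627, 2985 to 4829 and 3425 to 4878 in WT1-high, WT1-intermediate and WT1-negative cells, with Alb undetected. Trf, by far the brightest of them (mean log2 levels 12.54, 11.72 and 11.89), made up most of each sum, so the sums say little about the others. Single hepatocyte markers moved either way against WT1-negative cells. Apoa1, detected on no WT1-negative array, was at least 6.42-fold and at least 3.75-fold higher. Ttr, detected on 2 WT1-negative arrays, rose by 3.68 and 3.63. Trf rose by 0.64 in WT1-high cells, and Hnf4a fell by 0.6 and 0.91. Stellate cell markers summed to 448.2 to 833.2, 375.4 to 606.8 and 415.7 to 508.7, so these sums overlapped. Myofibroblast markers summed to 8796 to 15350, 6149 to 10880 and 10710 to 12260, which also overlapped, but the 5 genes moved in opposite directions. Against WT1-negative cells 3 were called higher and 2 lower in WT1-high cells, and 2 higher and 2 lower in WT1-intermediate cells. Col3a1 differed by 4.55 and 4.36 (called at 1 of 2 probes) and Col1a2 by 2.69 and 2.39. Acta2 differed by -1.78 and -2.55 and Col1a1 by -1.4 and -1.26. Timp1 differed by 1.43 in WT1-high cells and by 0.93, not called, in WT1-intermediate cells. Single stellate cell markers moved either way against WT1-negative cells. Colec11, a collectin, was detected on no WT1-negative array and was at least 7.63-fold and at least 6.38-fold higher, and Hand2 was at least 1.41-fold and at least 1.21-fold higher, also with no WT1-negative detection (limma adjusted p 0.0046 and 0.023). Pdgfrb fell by 1.14 and Hgf fell by 1.21 (called at 1 of 2 probes) in WT1-high cells, and Des fell by 1.34 in WT1-intermediate cells.

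The rest of the class I family largely followed H2-K1 and H2-T23, although probes of such near copies may read each other's transcripts. Shared runs were searched only from the member probes, so these chains may not be separate measurements. Of 12 other class I and class I-like chains tested of 19 on the array, 8 rose and 3 fell in WT1-high cells, and 7 rose and 3 fell in WT1-intermediate cells against WT1-negative cells. The medians were 1.15 and 1.12. Among all probes 26.5% and 24.4% were called higher and 33.1% and 33.6% lower. H2-M2 had the largest called rise (2.67 and 2.77), but it was detected on only 1 WT1-negative array. The non-classical H2-Q6 and H2-Q7 rose by 2.2 to 2.33. Those that fell are not classical presenters: Hfe, which regulates iron uptake, fell by 1.55 and 0.96, Fcgrt, the neonatal Fc receptor, by 1.27 and 1.28, and H2-M3, which presents formylated peptides, by 1.07 and 0.75. The 3 H2-T10 probes disagreed, with differences from -0.09 to 1.52 in WT1-high cells.

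All 5 other trimming and loading factors tested were called in both contrasts with WT1-negative cells, beside 59.6% and 58% of all probes. Erap1, the aminopeptidase that trims peptides in the endoplasmic reticulum, was detected on no WT1-negative array and was at least 1.64-fold and at least 1.45-fold higher (limma adjusted p 7.5e-05 and 0.00033). Tapbpl, a tapasin-related peptide editor, rose by 1.26 and 1.07, although not at all of its 3 probes. Pdia3, a disulfide isomerase of the loading complex, rose by 0.81 and 0.46 and the chaperone Hspa5 by 3.94 and 4.14. Hspa5 was dim in WT1-negative cells and detected on only 2 of their arrays. Calr, the chaperone calreticulin, fell by 0.65 and 0.78.

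Most other core proteasome genes were lower in the cells from injured liver, and the PA28 activators were split. All 9 other core subunits and assembly genes tested fell in WT1-high cells (median -0.52). In WT1-intermediate cells 7 of 9 fell (median -0.53). Among all probes 33.1% and 33.6% were called lower. Pomp, the assembly factor, fell by 0.85 and 0.68 and the core subunit Psma7 by 0.73 and 0.76. Psmb6 fell by 0.87 and 0.53 and Psmb7 by 0.49 and 0.5 (called at 3 of 4 probes), whereas Psmb5 differed by -0.13 and 0.16 with no call. Psme1, a subunit of the PA28 activator, rose by 0.65 and 0.42, the second at 1 of 2 probes. Its partner Psme2 fell by 0.65 and 0.64, and Psme3 was not called (0.03 and -0.3).

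Since the immunoproteasome subunits replace constitutive ones, the change of each was set against that of its counterpart on the same array, as a description with no test. Relative to the WT1-negative mean, the log2 ratio of Psmb8 to Psmb5 was -0.88 ± 0.55 for the WT1-high arrays and -1.03 ± 0.23 for the WT1-intermediate arrays (SD, n = 3). That of Psmb9 to Psmb6 was 1.06 ± 0.33 and 0.74 ± 0.44, and that of Psmb10 to Psmb7 was 0.43 ± 0.19 and 0.67 ± 0.19. The WT1-negative SDs were 0.15, 0.4 and 0.1. The Psmb8 ratio was thus lower and the Psmb10 ratio higher on every array from injured liver than on any WT1-negative array, and the Psmb9 ratio of WT1-intermediate cells (from 0.44) overlapped that of WT1-negative cells (up to 0.45).

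**Figure D4:**
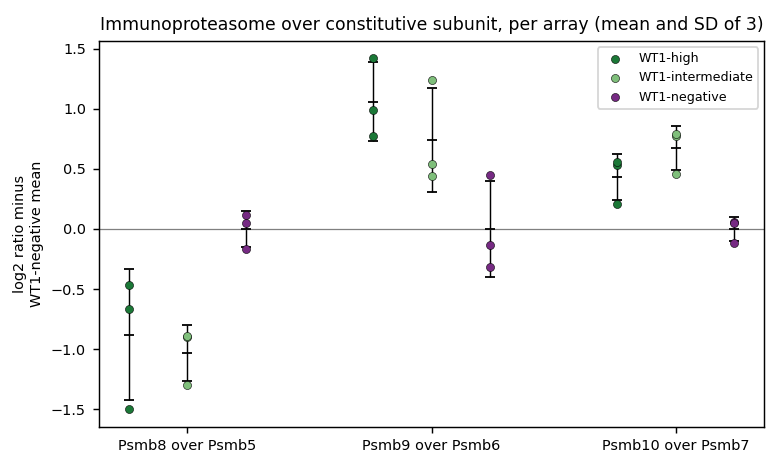
Log2 ratio of each immunoproteasome subunit to its constitutive counterpart on each array, minus the WT1-negative mean (vertical axis), with means and SDs of 3 arrays. The Psmb8 ratio lay below 0 and the Psmb9 and Psmb10 ratios above 0 in WT1-high and WT1-intermediate cells.

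Regulators of class I transcription rose in part. Of 10 tested, 4 rose in WT1-high cells and 5 rose in WT1-intermediate cells, with no fall at the brightest probes. Among all probes 59.6% and 58% were called, with 26.5% and 24.4% called higher. Irf9 was called lower at its dimmer probe (-1.08 and -0.72). Irf7 rose most (2.51 and 2.63), but it was detected on only 2 WT1-negative arrays. Irf1, an interferon-induced activator of class I and immunoproteasome genes, rose by 1.56 and 1.43 at its brightest probe and was called at 4 of 5 probes in WT1-high cells. The NF-kappaB subunits Rela and Nfkb1 rose by 1.29 and 1.1 in WT1-high and by 0.95 and 0.88 in WT1-intermediate cells. By a pathway analysis, a different measure, the paper reports NF-kappaB signalling as relatively inactivated in both groups against WT1-negative cells. Subunit RNA does not measure activity. Irf8 was called in WT1-intermediate cells, with a difference of 1 (adjusted p 0.0046), and not in WT1-high cells (0.49, adjusted p 0.1).

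Of 9 receptors, kinases and ligands of the interferon and TNF pathways, 4 rose and 2 fell in WT1-high cells. In WT1-intermediate cells 5 rose and 1 fell. The shares of all probes called were 59.6% and 58%. Jak1, a kinase of interferon receptors, rose by 2.8 and 3.08 at its brightest probe, and 2 of its 3 probes were called in WT1-high cells. Ifng itself, a product of T and NK cells, was detected on no WT1-negative array and was at least 2.32-fold and at least 2.54-fold higher (limma adjusted p 0.0001 and 6.5e-05). Tnfrsf1a, the TNF receptor, fell by 0.65 and 1.02, and Tyk2 fell by 0.79 in WT1-high cells (called at 2 of 3 probes). Ifngr2, a chain of the interferon gamma receptor, was the only gene of the 8 pathway lists outside the members to be called when WT1-high was set against WT1-intermediate, falling by 1.46 at the brightest of 3 probes (adjusted p 0.0086). It was not called at the others, and no call was left without the filter.

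Most interferon-induced genes outside the pathway rose. Of 15 tested, 11 rose in WT1-high cells and 13 rose in WT1-intermediate cells, none falling, with medians of 1.36 and 1.48. The shares of all probes called higher were 26.5% and 24.4%. Gbp2, a guanylate-binding protein, rose by 3.93 and 3.45, Oasl2, an antiviral sensor homologue, by 3.89 and 3.35, and the chemokines Cxcl10 and Cxcl9 by 2.41 and 2 in WT1-high cells. Cxcl9 was detected on only 1 WT1-negative array. Ifit2 and Oas1a were not called at their brightest probes, at -0.36 and -0.29 in WT1-high cells, although the other Ifit2 probe was called higher (0.8). Psmb8, Psmb9, Psmb10 and Tap1, which interferon also induces, gave no rise beside these genes.

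**Figure D5:**
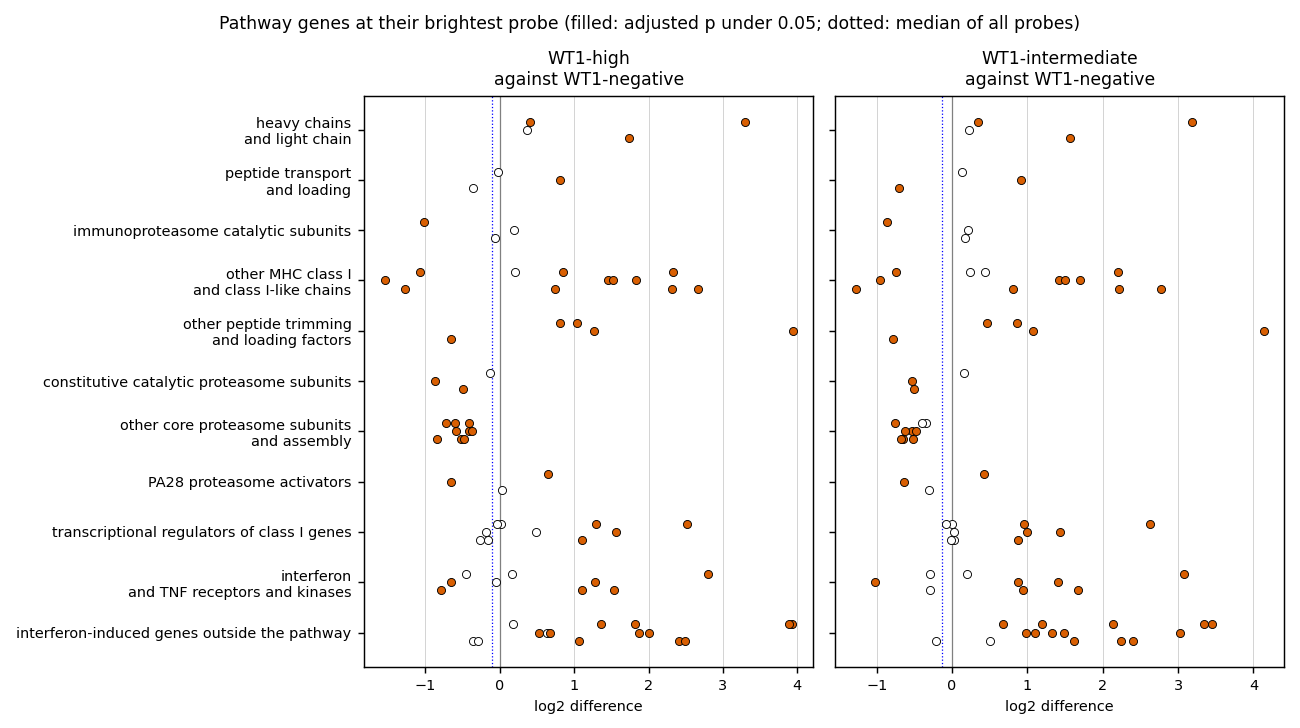
Log2 difference from WT1-negative cells (horizontal axis) for each gene of the member and pathway lists at its brightest probe, in WT1-high and WT1-intermediate cells, filled for an adjusted p under 0.05. Class I chains and interferon-induced genes lay mostly to the right of the dotted median of all probes (-0.1 and -0.13), and core proteasome subunits to its left.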

How the data were processed

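RNA of 9 sorted samples was amplified, biotinylated and hybridised to Illumina mouse bead arrays. The deposited tables hold the non-normalized intensity of 45281 gene probes and of the control probes, with the scanner software's detection p-value per probe, as exported by the authors for the in vivo and in vitro arrays separately. The labels name limma as the authors' tool. Coordinates come only from RefSeq promoter windows of GRCm38.p6, which listed 9 of the 10 members, and the order of neighbouring genes from the RefSeq gene table.

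Intensities were background corrected by normexp on the negative controls, quantile normalized with an offset of 16 and taken to log2 (limma 3.58.1, R 4.3.3), after the study's stated steps. The 20573 probes with a detection p-value under 0.05 on at least 3 arrays were fitted with the 3 groups as levels, without a block. P-values are limma's moderated two-sided tests, Benjamini-Hochberg adjusted over all probes of a comparison, and an adjusted p under 0.05 is a call. A gene outside the members is given by its brightest kept probe. The alternatives tried are listed with their effect in the closing section. A probe detected on no array of a group is given as a lower bound, against the lowest signal detected there. Summed levels are on the linear normalized scale. The text names every member, every gene of lists of 6 or fewer, and the largest rise and fall of longer lists, with further examples picked after their values were seen. Members and lists were chosen with earlier results of these data known. A column of WT1-intermediate cells carries the number 29, as a WT1-high column does, while no WT1-intermediate label has that number. It was taken as replicate 30, the remaining array of that group. Its detection p-value was computed from its negative controls, by a rule that gave the deposited value within 1 of 936 controls on the other 8 arrays. The steps were tested on simulated data. The values of 1 gene of the pathway lists are not reported here.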

Additional observations from a re-analysis of the deposited data

How the results depend on the processing

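Alternatives were median scaling, cyclic loess, no background correction, an offset of 50, no filter, detection on all 9 arrays, only the groups compared, array weights, replicate blocks, leaving out each array and, for pathway genes, counting every kept probe. Calls between WT1-high and WT1-negative cells numbered 11 of the member probes and 50 of the pathway genes, and stayed at 9 to 12 and 34 to 53. Between WT1-intermediate and WT1-negative cells the 50 pathway genes stayed at 38 to 53, and 11 member probes became 7 with median scaling, which moved the median difference of all probes from -0.13 to -0.44 (WT1-high against WT1-intermediate: 0.05 to 0.45) and the share of higher calls from 42.1% to 23.1% (25.5% to 95.5%). The cause was not tested. No background correction gave 37.8% higher between WT1-high and WT1-intermediate cells, with 510 probes called in place of 730 and 2684 with median scaling. No called member changed direction in any alternative, and sign changes touched only uncalled values.

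Labels share replicate numbers 1 and 8 between WT1-high and WT1-intermediate arrays, whose deviations from the group means correlated at 0.35 and 0.34 (0.47 for 29 with 30). All other pairings of a WT1-high with a WT1-intermediate array correlated at -0.39 to 0.03. For these 2 groups the fixed replicate block by label number called 0 member probes and 1 pathway gene, that with 29 and 30 as 1 block called 1 and 5, and the random replicate block called 1 and 4, also with 29 and 30 together (an alternative chosen after seeing the data). The member was Psmb8 ILMN_2693940. The random block gave 11 member calls in each contrast with WT1-negative cells, where a fixed block has no shared numbers. The 1 pathway gene (Ifngr2) became 6 with median scaling and 0 without the filter. Without each array in turn the member calls were 0, 10 to 11 and 8 to 11, and the pathway calls 1 to 3 (3 without WT1-intermediate replicate 30), 43 to 52 and 46 to 51. The chip could not be run as a block, since no chip number was used here. Tap1 and the Tapbp probes were dim, which limits what their small differences can show.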
